A study of Sus scrofa with 26 samples.

Results

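The comparison described here is that of F1 crossbred pigs killed after a period of heat with F1 pigs killed before it, in subcutaneous adipose tissue. The arrays were chosen by the breed and temperature in the sample titles, which gave 9 of the 26 arrays of the series, 4 from thermoneutral (TN) and 5 from heat-stressed (HS) F1 pigs. The F1 pigs were crosses of Large White and Creole parents, and the other 17 arrays came from the parental breeds, 8 Creole and 9 Large White. All pigs were growing castrated males that were fed freely, and their age at slaughter was not given in the labels. The TN group is labelled 24 °C. The HS group is labelled 30 °C, while the text deposited with the samples gives 32 °C for 5 days. Each array held RNA of 1 pig. TN pigs were slaughtered before the temperature was raised, and the study reports that the heated pigs, taken over all breeds, ate less under heat. Temperature, feed intake, slaughter day and age therefore cannot be told apart in these data. The cross was housed in pens and drawn from blocks of littermates, and neither pen nor litter is in the labels. The blocks per breed were fewer than the pigs of either F1 group, so each group holds siblings. The tests below treat the pigs as independent.

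Subcutaneous adipose tissue stores triglyceride in adipocytes and insulates the body, so its thickness and blood flow bear on how much heat a pig can lose. Besides adipocytes the tissue holds fibroblasts, preadipocytes, endothelial cells and immune cells, and it is these other cells, rather than mature adipocytes, that divide. Cells that enter mitosis make a common set of transcripts for the cyclin B and CDK1 kinase, the spindle, the kinetochore and the anaphase-promoting complex. Cells under acute heat make chaperones of the heat shock protein families.

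Levels are log2 quantile-normalised spot intensities, and a change is the HS mean minus the TN mean on that scale, so that equal changes are equal ratios of signal. A probe was called differentially expressed when its Benjamini-Hochberg adjusted p from limma was under 0.05 over all 44703 tested probes. The F1 arrays had between 68.5% and 76.6% of their spots well above background, no spot was saturated, and pairs of F1 arrays correlated at 0.985 to 0.993 within a temperature and at 0.983 to 0.992 between temperatures. The adipocyte genes ADIPOQ (17.28 in TN and 17.43 in HS pigs), FABP4 (18.32 and 18.29) and PLIN1 (15.81 and 15.72) were near the top of the scale in both groups. Of the other cell types, markers of keratinocytes stood apart on HS arrays 3 and 5, where the basal keratin gene KRT5 read 14.02 and 13.62, SFN 12.56 and 11.57, and DSP 11.03 and 10.55. On the other 3 HS arrays KRT5 read 7.74, 9.83 and 9.75, and on the TN arrays 5.17, 7.23, 5.65 and 9.39. The main results are also given without these arrays.

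In F1 pigs, 188 probes (0.421% of those tested) differed between HS and TN, 138 lower (0.309%) and 50 higher (0.112%) after heat. They named 71 genes, 59 lower and 12 higher, which is 0.688% of the 10324 genes tested, and for 44 genes (0.426%) the brightest probe of the gene was among them. The largest falls ran from UBE2C at -1.49 to NUSAP1 at -0.97 and included members of the cell cycle list, such as UBE2C, CDK1 and TOP2A. EAPP followed at -0.96 on its called probe, and the smaller falls came from genes of mixed roles. None of the genes that rose was in the gene lists, and they rose by 0.37 to 0.84. The median size of a called change was 0.60 on the log2 scale, and the 25 probes beyond 1 log2 were all lower in HS pigs. In 174 of the 188 probes the HS and TN values did not overlap, against 3079 of all tested probes (6.89%), and in all 188 each of the 5 HS arrays lay on the same side of the TN mean. These counts describe the probes that the test selected.

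The number of called probes rested on which arrays entered the fit. All 188 probes kept their sign under every setting in which they were tested, which their selection on the same arrays largely fixes. Without TN array 1 or 2, or without HS array 2 or 5, limma called 0 probes, without HS array 3 it called 16, and without TN array 4 it called 365. Leaving out 1 array of the other breeds, which share the estimate of spread, gave between 132 and 494, the latter without Creole HS array 5. With only the 9 F1 arrays in the fit 5 probes were called, and with the slide as a fixed block 4 were called. With array weights, which give arrays that depart from their group less influence, 600 were called. With HS arrays 3 and 5 both left out limma called 0 probes, with 6171 at an unadjusted p under 0.05, and with the keratinocyte markers as a covariate it called 0, with 5291 at that p. The red blood cell markers (HBB change -1.21, adjusted p = 0.105) also gave 0 as a covariate, with 5320 at that p, against 7133 in the fit as reported. The lowest adjusted p in the fit as reported was 0.02. The adjusted p-values below are those of the fit as reported.

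**Figure D1:**
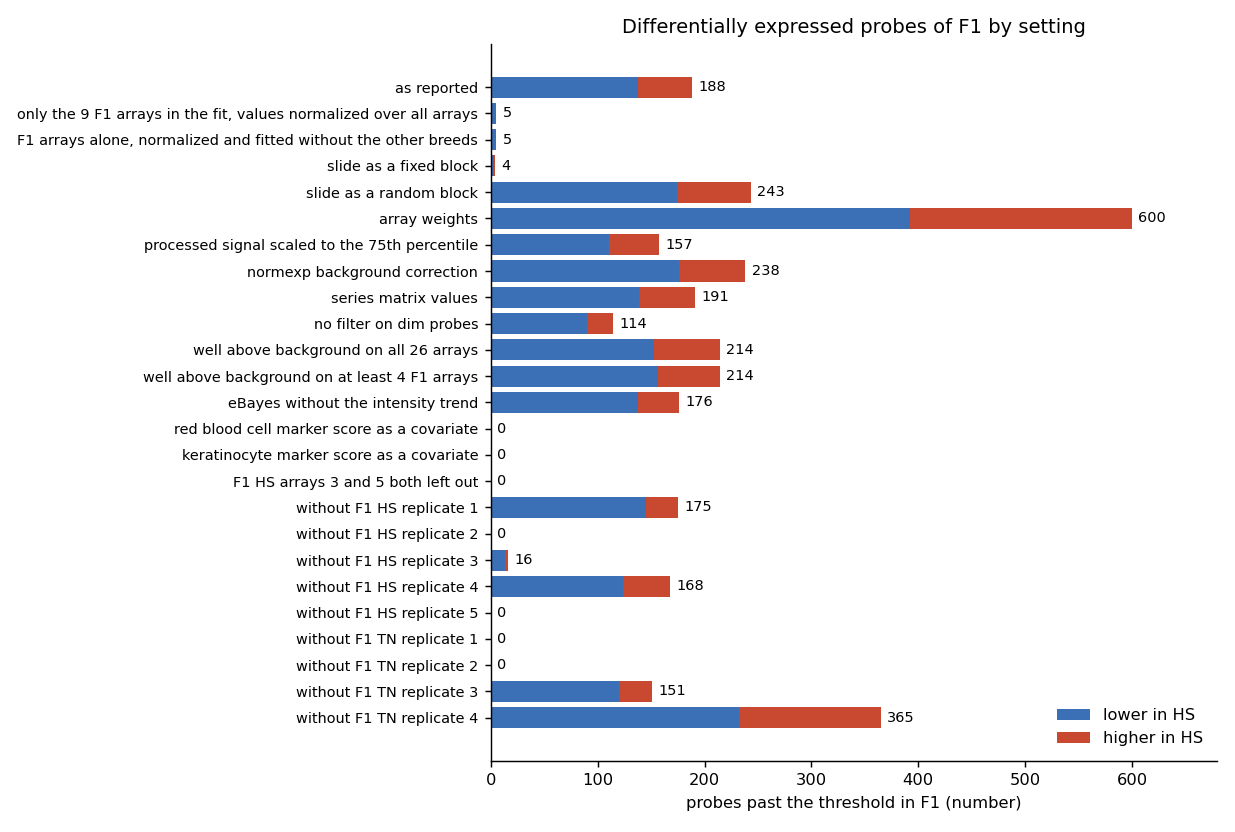
Number of differentially expressed probes in F1 pigs (horizontal axis, linear from 0) under each setting of the analysis, one bar per setting, split into probes lower and higher in HS pigs. The bar for the values as reported stands at 188, and the bars range from 0 to 600.

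The array reports a gene by probes of 60 bases, and the probes behind the main changes are printed here because many genes were read by several probes that share bases, and because some of the largest changes came from probes without a gene symbol. Sequences run 5′ to 3′. Capitals mark a stretch shared with another called probe or, for TLR6, with a probe of MUC13, and a sequence with no capitals was not found to share one with a called probe. The OVGP1 probe shares 38 bases with a probe without a symbol, A_72_P019936, that was not called (0.45, adjusted p = 0.358). Among called probes with a symbol that of UBE2C gave the largest fall and that of OVGP1 the largest rise, and A_72_P527622 and A_72_P364548 gave the largest fall and rise among called probes without a symbol.
UBE2C, A_72_P368728: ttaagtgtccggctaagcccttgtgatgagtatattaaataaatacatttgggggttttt
OVGP1, A_72_P146596: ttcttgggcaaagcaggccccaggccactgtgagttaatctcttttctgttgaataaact
No symbol, A_72_P527622: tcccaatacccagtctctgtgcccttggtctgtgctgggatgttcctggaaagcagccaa
No symbol, A_72_P364548: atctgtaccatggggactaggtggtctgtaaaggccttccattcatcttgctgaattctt

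The next pairs show that probes counted separately may read the same stretch of a transcript. A CDK1 probe shares 57 bases with a called probe that has no symbol. A_72_P305179 and A_72_P442508, both without a symbol in the gene tables, share 56 bases, and the array's own description places the former at a sequence like cattle ASPM, a spindle pole gene. A pair of STMN1 probes shares 33 bases and a pair of PRDX3 probes shares 27. The STMN1 probe A_72_P731693 also shares all 60 bases with a further called STMN1 probe, A_72_P281684, which its capitals do not mark.
CDK1, A_72_P293014: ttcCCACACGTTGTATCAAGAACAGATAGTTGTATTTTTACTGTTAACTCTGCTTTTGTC
No symbol, A_72_P305179: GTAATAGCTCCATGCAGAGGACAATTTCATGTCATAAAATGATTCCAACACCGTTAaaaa
No symbol, A_72_P442508: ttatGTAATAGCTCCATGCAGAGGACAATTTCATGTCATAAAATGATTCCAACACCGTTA
STMN1, A_72_P748030: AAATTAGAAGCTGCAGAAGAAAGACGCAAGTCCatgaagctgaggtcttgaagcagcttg
STMN1, A_72_P731693: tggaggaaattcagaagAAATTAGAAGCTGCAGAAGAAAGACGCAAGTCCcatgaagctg
PRDX3, A_72_P639825: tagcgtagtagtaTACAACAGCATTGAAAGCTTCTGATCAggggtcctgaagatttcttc
PRDX3, A_72_P654455: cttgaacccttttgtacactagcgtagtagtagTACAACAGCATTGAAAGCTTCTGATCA
Of the 188 called probes, 27 shared a run of 20 or more bases with another called probe, 21 of them within their gene, so the 188 are not 188 separate transcripts. The genes with a called probe had 116 other tested probes, and 109 of these (94.0%) changed in the same direction as the called probe. For genes that fell, 96 of 99 other probes were also lower, and for genes that rose 13 of 17 were also higher.

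Among the regulators of mitotic entry and exit, UBE2C, the ubiquitin-conjugating enzyme of the anaphase-promoting complex, fell most. Its level was 10.32, 10.33, 9.84 and 9.82 in the 4 TN pigs and 8.94, 8.11, 8.46, 9.0 and 8.42 in the 5 HS pigs. The groups did not overlap, and the highest HS pig lay well under the lowest TN pig. The change was -1.49 (SE 0.23, adjusted p = 0.02), which left 35.5% of the TN signal. CDK1, the kinase that drives cells into mitosis, read 8.90, 9.02, 8.39 and 8.60 in TN and 8.13, 7.14, 7.34, 7.66 and 7.26 in HS pigs. Every HS value was lower than every TN value, and HS array 1 came closest to the TN group. The change of CDK1 was -1.22 (SE 0.24, adjusted p = 0.0323), and both of its probes were called.

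CCNB1, one of the cyclins that activate CDK1, read 9.28, 9.04, 9.03 and 8.40 in TN and 8.28, 7.27, 7.54, 7.92 and 7.59 in HS pigs. The HS pigs were all lower, with a narrow gap between TN array 4 and HS array 1. CCNB1 fell by 1.21 (adjusted p = 0.0306), and CCNB2 fell by 0.80 on 1 of its 2 probes (adjusted p = 0.0306, mean over probes -0.50). CDC20, an activator of the anaphase-promoting complex, fell by 0.84 on its brighter called probe (adjusted p = 0.0333), and PTTG1, the securin that holds back chromatid separation, fell by 1.12 (adjusted p = 0.0365). PLK1, a kinase of the mitotic spindle, changed by -0.46 (adjusted p = 0.0333) at a low signal, from a TN mean of 6.38 to an HS mean of 5.92.

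The same pigs stood high and low across genes of chromosome structure and of the spindle. TOP2A, the topoisomerase that untangles chromosomes, read 8.34, 8.34, 7.95 and 7.76 in TN and 7.35, 6.23, 6.75, 7.15 and 6.78 in HS pigs on its called probe. The groups were separate, with HS array 2 lowest. TOP2A fell by 1.24 on that probe (adjusted p = 0.0306), while its brighter probe gave the same change with an adjusted p = 0.0719. BIRC5, the survivin subunit of the chromosomal passenger complex, read 10.29, 10.17, 10.12 and 10.04 in TN and 9.46, 8.97, 9.05, 9.27 and 9.08 in HS pigs. The spread within each group was small beside the gap between them. BIRC5 changed by -0.99 (SE 0.17, adjusted p = 0.02), and 2 of its 3 probes were called. BUB1, a kinase of the spindle checkpoint, fell by 1.05 (adjusted p = 0.02), with 4 of its 5 HS arrays well above background.

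The motor and spindle genes KIF23 (-1.23), KIF4A (-1.19), NUSAP1 (-0.97) and SPAG5 (-1.17) were lower, as were the kinetochore gene CENPF (-1.17), the mitotic kinase gene PBK (-1.26) and CDCA3 (-1.11), with adjusted p-values from 0.0261 for KIF23 to 0.0467 for PBK. CENPF was called on 1 of its 4 probes, and its mean over probes was -0.66 (adjusted p = 0.0947). In SPAG5 and CENPF an HS pig overlapped the TN group. In SPAG5, HS array 1 (8.56) equalled TN array 4 (8.56) to 2 decimals, and in CENPF, HS array 1 (8.29) passed TN array 4 (8.28). STMN1, whose product destabilises microtubules, was the brightest gene of this group and was called on 5 of its 6 probes, with changes between -0.83 and -0.74 on the called probes. RACGAP1 and CIT, genes of cytokinesis, fell by 0.80 and 0.92, and NCAPH, a condensin subunit, by 0.72.

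Of the 35 genes listed for the cell cycle 26 were measured, 25 of them lower in HS pigs, and 11 were called by their brightest probe, all lower, against 0.426% of all genes. The median change over the 26 genes was -0.67, against -0.004 over all tested probes, and the list was drawn up with earlier results of these arrays known. The members that were called are genes of mitosis. The DNA replication genes of the list were not past the threshold, with MCM6 at -0.35 (adjusted p = 0.269), MCM3 at -0.28 (adjusted p = 0.467), MCM2 at -0.28 (adjusted p = 0.638) and PCNA at -0.24 (adjusted p = 0.353). RRM2, which makes deoxynucleotides, was at -1.10 with an adjusted p = 0.0917. MKI67 was dim, at 6.45, 6.26, 6.02 and 6.07 in TN and 6.30, 5.93, 5.74, 6.02 and 5.82 in HS pigs, and its groups overlapped (change -0.24, adjusted p = 0.625). KIF11 was the 1 gene of the list with a higher HS mean (0.41, adjusted p = 0.142).

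The mean deviation of the 26 cell cycle genes from the F1 mean was 0.49, 0.48, 0.34 and 0.19 on the TN arrays and 0.12, -0.57, -0.43, -0.15 and -0.47 on the HS arrays. The HS arrays were all lower, array 1 least and array 2 most. The median change of the list was -0.61 with HS arrays 3 and 5 left out, -0.70 with the keratinocyte markers as a covariate and -0.64 with the red blood cell markers as a covariate. It was -1.04 when the scanner's processed signal was scaled to the 75th percentile. In bulk tissue, fewer dividing cells and less of these transcripts per cell cannot be told apart.

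**Figure D2:**
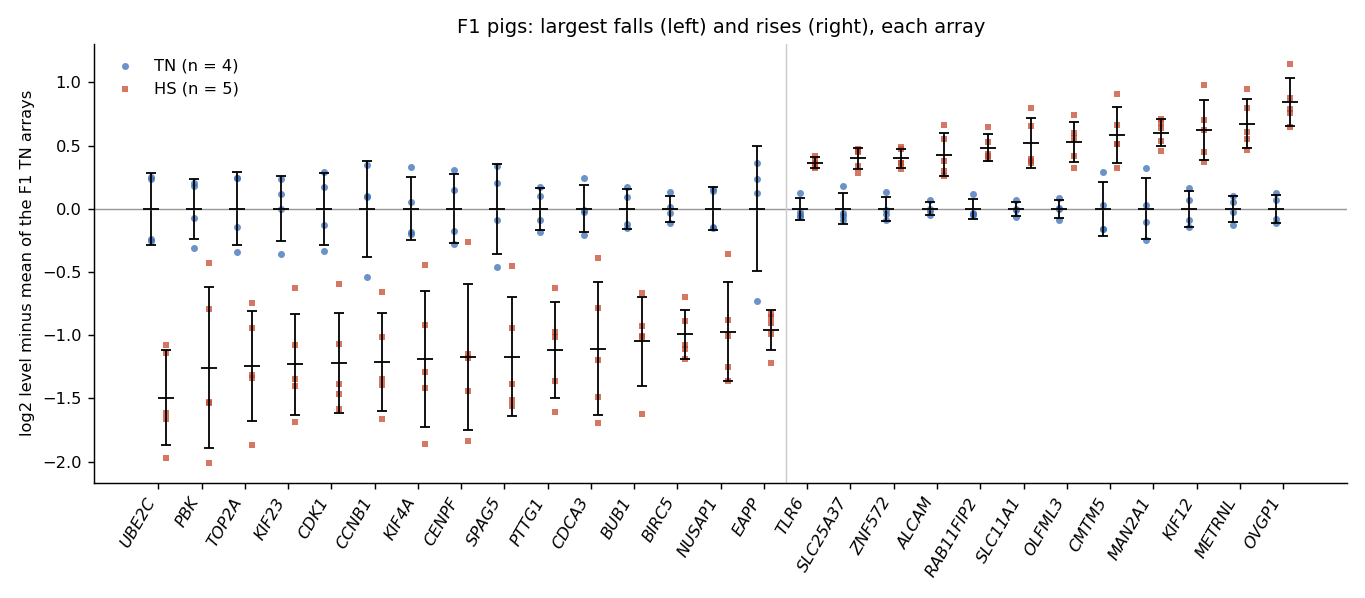
Level of each F1 array minus the mean of the TN arrays (log2, vertical axis) for the 15 named genes with the largest fall and the 12 with the largest rise, with each point 1 pig, the horizontal marks group means and the bars SD (TN n = 4, HS n = 5). HS points lie under the TN points for most of the falling genes, with an overlap in CENPF and SPAG5, and above them for each rising gene.

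The called falls also included the antioxidant genes NQO1 and PRDX3. NQO1, a quinone reductase that NRF2 controls, read 9.76, 9.75, 9.49 and 9.68 in TN and 8.87, 8.70, 8.72, 8.87 and 8.90 in HS pigs. Both groups were tight and lay far apart. NQO1 changed by -0.86 (SE 0.15, adjusted p = 0.0261), to 55.2% of the TN signal, and all 3 of its probes were called, at -0.86 to -1.0. PRDX3, the peroxiredoxin of mitochondria, was read by 16 probes, all lower in HS pigs by 0.43 to 0.74, and 5 of them were called. Its brightest called probe read 14.73, 14.40, 14.42 and 14.57 in TN and 13.99, 13.87, 13.88, 14.20 and 14.19 in HS pigs (change -0.50, SE 0.10, adjusted p = 0.0333). The groups did not overlap on that probe. Over the 31 measured antioxidant genes 20 were lower and 11 higher, and 1 was called by its brightest probe, against 0.426% of all genes. The median change was -0.06 (-0.11 to -0.03 with 1 F1 array left out).

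Among carriers of the inner mitochondrial membrane, SLC25A3, which imports phosphate, was called on 6 of its 11 probes and SLC25A5, an ADP/ATP carrier, on 3 of its 6. All probes of both genes were lower, at -0.23 to -0.46 for SLC25A3 and -0.33 to -0.47 for SLC25A5. SLC25A3 read 15.08, 15.08, 15.12 and 14.997 in TN and 14.78, 14.56, 14.73, 14.80 and 14.65 in HS pigs (adjusted p = 0.0261). The change was small, and the groups were apart because both were tight. ETFDH, which passes electrons from fatty acid oxidation to ubiquinone, changed by -0.40 (adjusted p = 0.0436). It was the 1 called gene of 23 in the fatty acid oxidation list, against 0.426% of all genes on their brightest probe. The mean of both ETFDH probes was -0.35 and not past the threshold (adjusted p = 0.156). The fatty acid oxidation list had 20 of 23 genes lower and a median of -0.19. In limma 8 of its genes, all lower, were at an unadjusted p under 0.05. The lists of TCA cycle (19 of 21 lower, median -0.14), complex I (24 of 34 lower, median -0.06) and complexes III to V (19 of 22 lower, median -0.07) had 0 called genes by limma, with 5, 3 and 1 at an unadjusted p under 0.05, against 15.9% of all genes on their brightest probe at that p. With 1 F1 array left out the median of the TCA cycle list lay between -0.21 and -0.097. That of complex I lay between -0.10 and -0.025 and that of complexes III to V between -0.13 and -0.025. Under the other settings the TCA cycle median lay between -0.20 and -0.073. That of complex I then lay between -0.12 and 0.024 and that of complexes III to V between -0.15 and 0.0017, so their sign turned.

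The lipid droplet genes CIDEA and PLIN2 and the sterol carrier gene STARD4 were also called lower. CIDEA, a lipid droplet protein of fat cells, read 15.33, 15.10, 15.24 and 15.22 in TN and 14.58, 14.59, 14.85, 14.79 and 14.78 in HS pigs. The groups were apart, and CIDEA changed by -0.50 (SE 0.11, adjusted p = 0.0445). A probe without a symbol that has the same 60 bases was at -0.42 and was not called (limma, adjusted p = 0.0917). PLIN2, which coats small lipid droplets, fell by 0.67 on a dim probe (adjusted p = 0.0261). Its bright probe read 11.62, 11.79, 10.77 and 11.61 in TN and 10.27, 10.32, 10.83, 10.23 and 9.60 in HS pigs, a change of -1.20 with an adjusted p = 0.0593. On the bright probe TN array 3 and HS array 3, which share a slide, overlapped. STARD4, a sterol carrier, fell by 0.71 (adjusted p = 0.0439). The lists of triglyceride and lipid droplet genes (16 of 19 lower, median -0.10) and cholesterol genes (8 of 13 lower, median -0.06) had 1 and 0 genes called by their brightest probe. Over all genes this share was 0.426%. With 1 F1 array left out their medians lay between -0.17 and -0.057 and between -0.11 and 0.097.

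Other called falls with a known role were the proteasome subunit gene PSMC2 (-0.52), the deubiquitinase gene UCHL5 (-0.38), the proton pump subunit gene ATP6V1C1 (-0.54), the peroxisome gene PEX19 (-0.47), the tight junction gene OCLN (-0.57), the WNT antagonist gene FRZB (-0.60) and the nuclear import gene IPO5 (-0.32). PSMC2 was called on 1 of 2 probes and OCLN on 1 of 5, and their means over probes were smaller, at -0.30 and -0.35. The means were smaller too for UCHL5 (1 of 5 probes called, mean -0.27), IPO5 (1 of 6, -0.27) and PEX19 (1 of 3, -0.39). The same held for ATP6V1C1 (1 of 2, -0.40) and FRZB (2 of 9, -0.53). All tested probes of these genes were lower in HS pigs. LACTB2, a mitochondrial nuclease gene, was called on all 3 of its probes at -0.42 to -0.58. EAPP was called on 1 probe (-0.96, adjusted p = 0.0473) that its other 6 probes did not share, with changes between -0.33 and 0.11 on those, and its mean over probes was -0.26 (adjusted p = 0.154).

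The 12 genes that rose did so by 0.37 to 0.84. OVGP1, named for a glycoprotein of the oviduct, rose most but was dim, at 6.34, 6.37, 6.52 and 6.57 in TN and 7.10, 7.60, 7.32, 7.21 and 7.24 in HS pigs. All HS pigs lay above all TN pigs. OVGP1 rose by 0.84 (SE 0.18, adjusted p = 0.0412), to 1.79 times the TN signal. METRNL, a secreted factor of muscle and adipose tissue, read 10.84, 11.02, 10.95 and 11.07 in TN and 11.44, 11.92, 11.77, 11.52 and 11.57 in HS pigs. The groups were apart, and METRNL rose by 0.67 (SE 0.14, adjusted p = 0.0377). Its second probe, which shares all 60 bases with the first, was called as well at 0.69. OLFML3, a secreted matrix protein, rose by 0.53 and 0.55 on its called probes, from 14.74, 14.64, 14.81 and 14.73 in TN to 15.47, 15.06, 15.15, 15.29 and 15.33 in HS pigs on the former (adjusted p = 0.0412).

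KIF12, a kinesin gene, rose by 0.63 (adjusted p = 0.0425), CMTM5 by 0.58 (adjusted p = 0.0445), RAB11FIP2, a gene of vesicle recycling, by 0.48 on 1 probe (adjusted p = 0.0365, other probes 0.16 and 0.15, mean over probes with adjusted p = 0.181), ALCAM, a cell adhesion molecule, by 0.43 (adjusted p = 0.0323), and SLC25A37, the iron importer of mitochondria, by 0.40 (adjusted p = 0.0436, mean over probes 0.33 with adjusted p = 0.13). The second CMTM5 probe, which has the same 60 bases as the first, was at 0.55 and was not called (limma, adjusted p = 0.0803). The other 4 rises were smaller or of the opposite sign on the other probes of their gene. SLC11A1, a metal transporter of macrophages, rose by 0.52 on 1 probe (adjusted p = 0.0306), while its other probes were at -0.39 and -0.45 and its mean over probes was -0.11 (adjusted p = 0.865). MAN2A1 (0.60), ZNF572 (0.40) and TLR6 (0.37) were no longer past the threshold when all their probes were averaged, with adjusted p-values of 0.27 for MAN2A1, 0.233 for ZNF572 and 0.32 for TLR6. The called TLR6 probe is bright, shares the 23 bases in capitals with a probe of MUC13 that sits at the top of the scale, and is printed here for that reason, while the other TLR6 probe was dim and changed by -0.08.
TLR6, O10727: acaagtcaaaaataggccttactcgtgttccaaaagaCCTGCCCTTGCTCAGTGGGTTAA

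Of the 188 probes, 79 had no gene symbol, 43 lower and 36 higher. A_72_P527622 had the largest fall of all called probes, at 11.29, 11.19, 10.97 and 10.68 in TN and 9.38, 9.28, 9.18, 8.74 and 8.84 in HS pigs (change -1.95, SE 0.42, adjusted p = 0.0412). O11735, which the array's design names FAM64A, changed by -1.54 (adjusted p = 0.0273). The groups of both probes were far apart. The largest rises were those of A_72_P364548 (0.87, adjusted p = 0.0261), where TN array 3 (13.18) reached HS array 2 (13.17), and A_72_P091996 (0.87, adjusted p = 0.0365). A_72_P305179 and A_72_P442508, the overlapping pair printed above, changed by -1.20 and -1.0. A_72_P395328, whose description names UBE2T, a DNA repair ubiquitin enzyme, changed by -0.57 (adjusted p = 0.0306).

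No gene of the HSP70, HSP90 or small heat shock protein lists was past the threshold in F1 pigs. Of 13 genes of the HSP70 and HSP110 family, 5 were higher and 8 lower (median -0.03), and of 14 genes of HSP90, its co-chaperones and the heat shock factors, 8 were higher and 6 lower (median 0.03). Limma called 0 genes in either, with 2 and 1 at an unadjusted p under 0.05. With 1 F1 array left out the median of the HSP70 list lay between -0.13 and 0.063, the latter without TN array 3. That of the HSP90 list lay between -0.039, without HS array 5, and 0.044. HSPA8, the constitutive HSP70, read 12.84, 13.26, 13.38 and 12.85 in TN and 12.69, 12.80, 13.10, 13.20 and 13.44 in HS pigs, and the groups overlapped throughout. HSP90AA1, an inducible HSP90, was at 0.32 (SE 0.20, adjusted p = 0.438), and FKBP4, a co-chaperone of steroid receptors, at 0.55 (SE 0.20, adjusted p = 0.174). The small heat shock proteins had 5 of 6 genes higher with a median of 0.38 (0.17 without HS array 5), and 0 of 6 at an unadjusted p under 0.05 or called by limma. HSPB1 read 14.63, 14.23, 14.83 and 14.36 in TN and 14.44, 14.59, 14.26, 15.15 and 15.55 in HS pigs, so that HS arrays 4 and 5 alone lay above the TN range. In the DNAJ family 22 of 30 genes were lower (median -0.09, and -0.055 without TN array 3), and DNAJB12, which works at the endoplasmic reticulum, was called on 1 of its 4 probes at -0.42 (adjusted p = 0.0306, mean over probes -0.22 with adjusted p = 0.0661). Of 17 genes of the unfolded protein response 11 were higher, with a median of 0.04, 0 called by limma and 2 at an unadjusted p under 0.05. This median was 0.0076 without TN array 2, 0.015 without HS array 1 and -0.0066 with the processed signal scaled to the 75th percentile.

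The lists of fatty acid synthesis and NADPH supply had no called gene in F1 pigs. Fatty acid synthesis had 13 of 18 genes lower, a median of -0.07, 0 called by limma and 1 at an unadjusted p under 0.05. The median was -0.0093 without TN array 1 and -0.19 without TN array 2, lay between these with any other F1 array left out, and was 0.079 with the red blood cell markers as a covariate. NADPH supply had 8 of 9 lower, a median of -0.30, 0 called and 3 at that p, among them PGD (-0.32, adjusted p = 0.239) and TKT (-0.30, adjusted p = 0.188). Under the other settings the NADPH median lay between -0.31 and -0.13. ME1, the malic enzyme that supplies NADPH, read 14.58, 13.99, 15.19 and 14.22 in TN and 13.60, 12.70, 13.23, 14.66 and 14.61 in HS pigs. HS arrays 4 and 5 were within the TN range and the other 3 under it, for a change of -0.74 (SE 0.40, adjusted p = 0.378). Glucocorticoid target genes had 12 of 16 lower and a median of -0.35, which was -0.16 without TN array 2 and -0.19 without HS array 5. Under the other settings this median lay between -0.52 and -0.068. In this list limma called 0 genes and 5 were at an unadjusted p under 0.05, with PDK4, which restrains glucose oxidation, at -1.29 (SE 0.58, adjusted p = 0.272) and SGK1 at -0.98 (SE 0.26, adjusted p = 0.0813). Of 26 genes of adipokines and adipose transcription factors 16 were lower, with a median of -0.06 (-0.11 without TN array 1, -0.014 without HS array 2), 0 called by limma, and 6 lower and 4 higher at that p. Among the latter, RBP4, at 0.77 (SE 0.18, adjusted p = 0.0549), and CFD, which encodes adipsin, at 0.52 (SE 0.13, adjusted p = 0.0719), had HS values above all TN values and were not past the threshold.

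**Figure D3:**
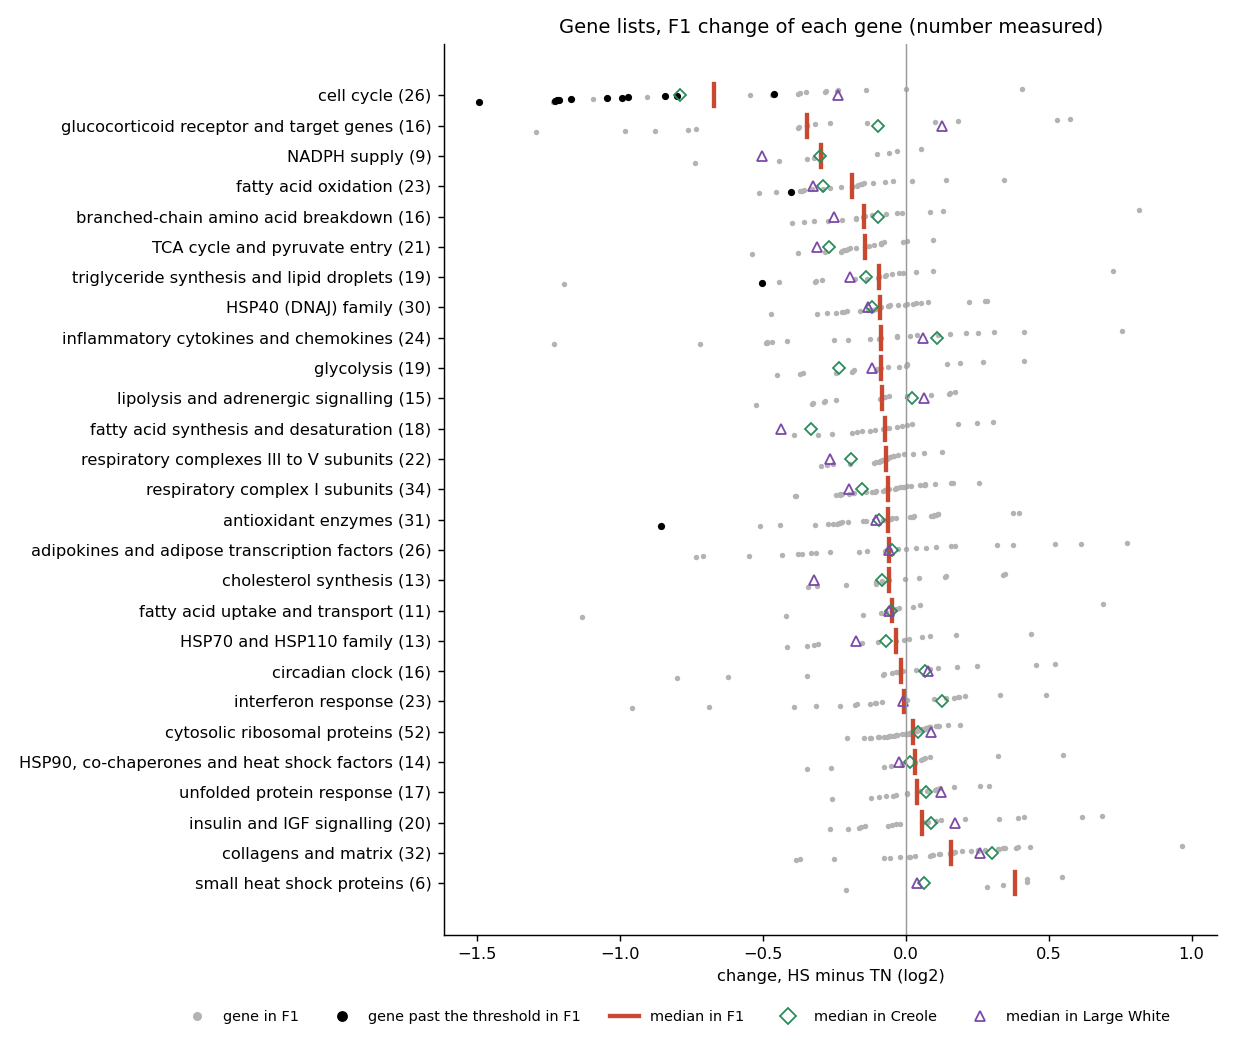
Change after heat (HS minus TN, log2, horizontal axis) of each measured gene of the 27 pathway lists in F1 pigs, grey points for genes and black points for genes past the threshold, with the F1 median as a red bar and the Creole and Large White medians as open symbols. The cell cycle list has the lowest F1 median, -0.67, and holds 11 of the black points.

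The genes that the study brought forward for this tissue were looked at by their brightest probe. None of the 10 was called in F1 pigs by that probe in limma, with CYBA, PRDX3, LPL, AHR and PLA2G7 at an unadjusted p under 0.05. The study tested temperature over all breeds together, in a model that also held pen, parents and slaughter day. Its calls thus rest on more pigs and another model than the F1 comparison. PRDX3 was called in F1 pigs on 5 of its 16 probes, not including the brightest. LPL, which releases fatty acids from lipoproteins, read 14.60, 14.39, 15.29 and 15.03 in TN and 15.81, 15.31, 15.12, 15.62 and 15.71 in HS pigs, with HS array 3 inside the TN range (change 0.69, SE 0.22, adjusted p = 0.133). CYBA, a subunit of NADPH oxidase, read 12.98, 12.93, 13.08 and 12.98 in TN and 13.26, 13.55, 13.42, 13.27 and 13.45 in HS pigs (change 0.40, SE 0.10, adjusted p = 0.0662). The CYBA groups were apart on this probe, but its other probe was at -0.32. Averaged over probes LPL was at 0.33 (adjusted p = 0.24) and CYBA at 0.04 (adjusted p = 0.901). FASN, the fatty acid synthase, was at -0.13 (SE 0.10, adjusted p = 0.568), the elongase gene ELOVL6 at -0.39 (SE 0.31, adjusted p = 0.566), and the superoxide dismutase genes SOD1 and SOD2 at -0.03 (adjusted p = 0.883) and -0.32 (adjusted p = 0.349). PRDX3 on its brightest probe was at -0.44 (SE 0.12, adjusted p = 0.0974), PLA2G7 at -0.45 (adjusted p = 0.252), MAPK6 at -0.26 (adjusted p = 0.42) and AHR at 0.29 (adjusted p = 0.156). The means over probes were -0.39 for FASN, -0.13 for MAPK6 and 0.14 for AHR. Leaving out 1 F1 array gave -0.165 to -0.055 for FASN, -0.56 to -0.12 for ELOVL6 and -0.41 to -0.18 for SOD2, with FASN and ELOVL6 closest to 0 without HS array 2.

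The parental breeds have TN and HS pigs of their own, so their changes can be set beside those of the cross. Of the 188 probes, 176 (93.6%) had the F1 sign in both Creole and Large White pigs, against 44.1% of all tested probes whose changes share a sign in the 3 breeds. At an unadjusted p under 0.05 in the F1 direction there were 124 in Creole (66.0%, against 8.79% of tested probes) and 99 in Large White pigs (52.7%, against 13.3%). The median change of the probes that fell was -0.67 in F1, -0.44 in Creole and -0.30 in Large White pigs, and that of the probes that rose was 0.48, 0.20 and 0.22. The probes were selected for a large F1 change, which makes the F1 values larger than the others by selection, and 133 of the 188 were larger in F1 than in both other breeds. The test of the difference, F1 change minus the mean of the Creole and Large White changes, called 0 probes in limma, with 2890 at an unadjusted p under 0.05.

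The cell cycle list had a median of -0.67 in F1, -0.79 in Creole and -0.24 in Large White pigs. UBE2C was at -1.49, -1.28 and -0.62 in these breeds, CDK1 at -1.22, -1.25 and -0.55, and KIF4A at -1.19, -1.26 and -0.22. For these genes the F1 values lay near the Creole values, and the difference between breeds was not past the threshold. NQO1 was at -0.86 in F1, -0.58 in Creole and -1.10 in Large White pigs, and A_72_P527622 at -1.95, -0.38 and -2.54. For both of these the F1 value lay between those of the parental breeds. The fatty acid synthesis list had medians of -0.07, -0.33 and -0.44, and this difference between breeds was not tested.

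The smallest p-values of the difference among the named genes were those of TOMM20, PPT2 and PPP2R3C. TOMM20, a receptor of the mitochondrial import pore, changed by -0.36 in F1, 0.22 in Creole and -0.06 in Large White pigs, a difference of -0.44 (unadjusted p = 7.13e-05, adjusted p = 0.761). These are the values of a dim probe, the 1 of 9 TOMM20 probes that was called, and the mean over probes in F1 pigs was -0.21 (adjusted p = 0.107). PPT2, a lysosomal thioesterase gene, changed by -0.67 in F1, 0.21 in Creole and 0.06 in Large White pigs on its probe with the smallest p (difference -0.80, adjusted p = 0.761), and its mean over 5 probes in F1 pigs was -0.31 (adjusted p = 0.0661). Probes without a symbol that have the same 60 bases as that probe changed less in F1 pigs, by -0.47 to -0.54. None of these copies was called (limma, adjusted p from 0.0764 to 0.112). PPP2R3C, a regulatory subunit of protein phosphatase 2A, read 8.87, 8.92, 8.48 and 8.41 in TN and 7.94, 7.99, 8.07, 7.93 and 8.09 in HS F1 pigs, with no overlap. Its change was -0.66 in F1 (adjusted p = 0.02), -0.09 in Creole and -0.12 in Large White pigs, and the difference of -0.56 did not pass the threshold (adjusted p = 0.761).

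**Figure D4:**
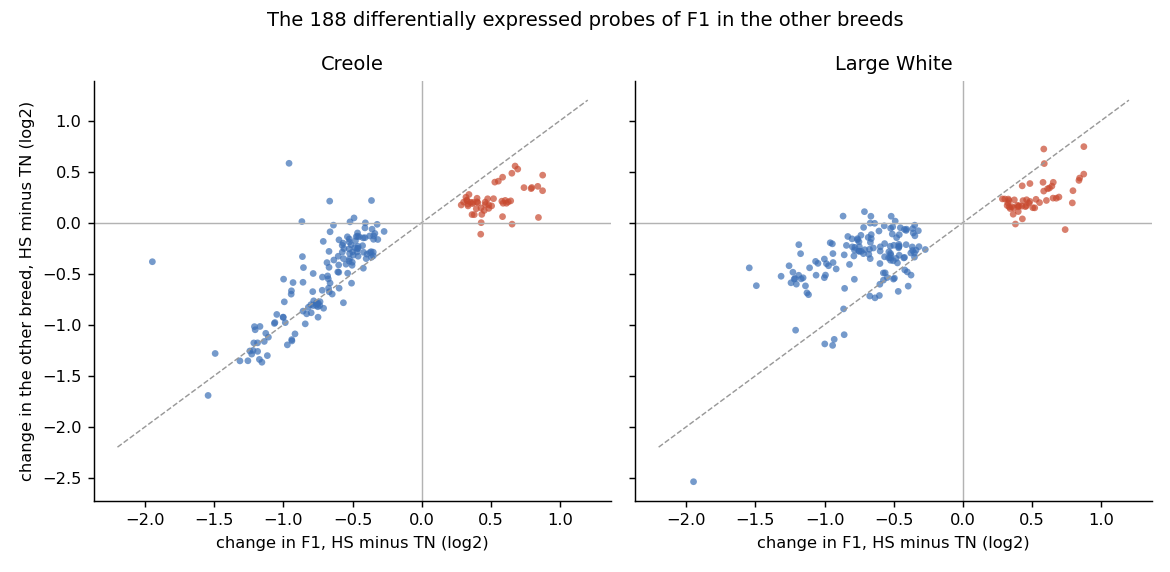
Change of the 188 differentially expressed probes in F1 pigs (horizontal axes) against the change in Creole (left) and Large White pigs (right), HS minus TN in log2, with blue points for probes lower and red points for probes higher in F1, and a dashed line where both changes are equal. Most points share the F1 sign, and the medians of the blue points are -0.67 in F1, -0.44 in Creole and -0.30 in Large White pigs.

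Arrays were hybridised on 5 slides, of which 3 held F1 arrays of both temperatures. On these, 185 of the 188 probes had the same sign in all 3 slides, which their selection on the same arrays largely fixes. UBE2C differed by -1.79 on slide 1, -1.38 on slide 3 and -0.82 on slide 4, CCNB1 by -1.50, -1.48 and -0.47, and NQO1 by -0.97, -0.77 and -0.81. The difference was smallest on slide 4 for UBE2C and CCNB1, while CDC20 differed least on slide 1 (-0.71, -0.88 and -0.88). NQO1 was alike on the 3 slides. With the slide as a fixed block UBE2C was at -1.39 (adjusted p = 0.0688) and NQO1 at -0.83 (adjusted p = 0.0688).

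Limma called 0 genes in each list of markers of other cell types. The keratinocyte and red blood cell lists are given here because they served as covariates, and their part in the results was not tested beyond the covariate fits given above. The keratinocyte list had 5 of its 11 genes measured, all 5 with a higher HS mean and 2 at an unadjusted p under 0.05, against 6.58% of all genes that were at that p and higher, and its mean deviation lay between -1.33 and -0.35 on the TN arrays and between -0.63 and 2.47 on the HS arrays. Its median change was 1.96, and 0.28 without HS arrays 3 and 5. The red blood cell list had 6 of 10 genes measured, 4 of them with a lower HS mean and 1 at that p, with a mean deviation of 0.07 to 0.43 on the TN and -0.53 to 0.24 on the HS arrays. With HS arrays 3 and 5 left out UBE2C changed by -1.40, CDK1 by -1.08, NQO1 by -0.86, CIDEA by -0.57, OVGP1 by 0.85 and METRNL by 0.66. These values were close to those over all arrays, and their adjusted p-values were between 0.15 and 0.154. With the red blood cell markers as a covariate UBE2C was at -1.455, NQO1 at -0.82, PRDX3 at -0.37 and METRNL at 0.50.

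**Figure D5:**
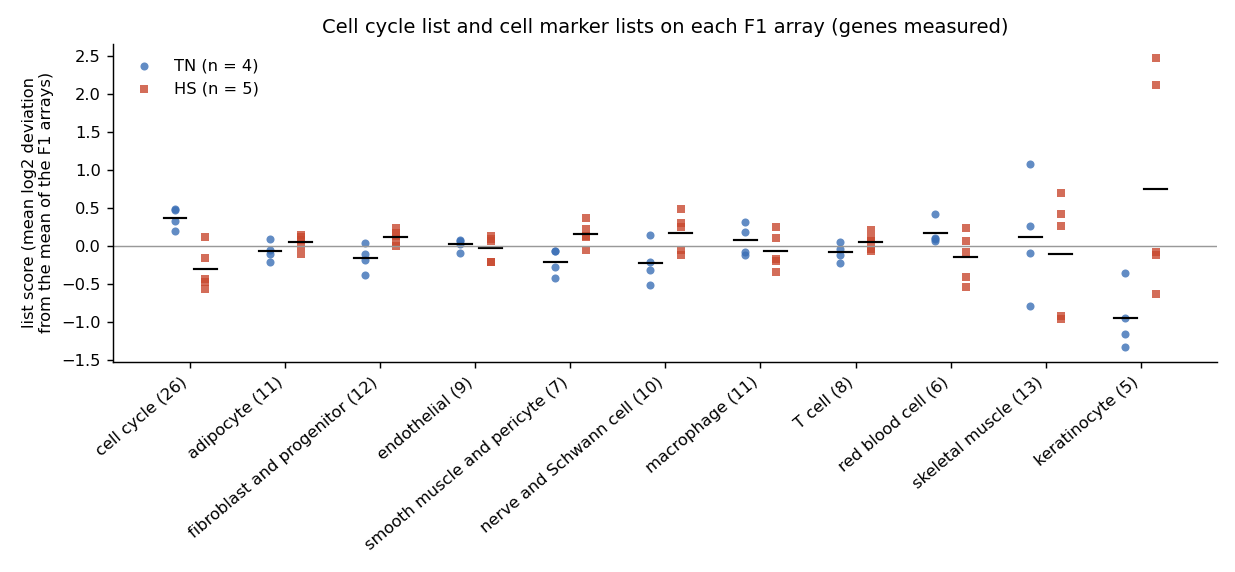
Mean deviation of the genes of a list from the mean of the 9 F1 arrays (log2, vertical axis) on each TN and HS array, for the cell cycle list and 10 cell marker lists, with the number of genes measured in parentheses and group means as horizontal marks. The cell cycle points of the 5 HS arrays lie under those of the 4 TN arrays, and 2 HS arrays lie far above all others in the keratinocyte list.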

How the data were processed

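Total RNA of 1 pig was labelled with Cy3 and hybridised per array. The deposited scanner files, made by the authors with Agilent Feature Extraction 10.10.1.1, hold a median intensity per spot and flags that mark whether a spot was well above background or non-uniform. The series table deposited by the authors holds log2 intensities, quantile-normalised, and its 44104 probes correlated at 1 with the values used here. Here, non-uniform spots were dropped, intensities were quantile-normalised over all 26 arrays and then log2-transformed, and repeated spots of a probe were averaged. The 44703 of 60305 probes that rose clearly over background on 8 or more arrays were fitted with limma 3.58.1 in R 4.3.3, with 6 group means of breed and temperature and an intensity trend. The methods of the study add pen, parents and slaughter day, which are not in the labels. The fit was tested on simulated data.

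Symbols came from the accession, gene ID or name in the scanner files matched to RefSeq gene tables, for 25714 of 60305 probes. Probe sequences are those of the scanner files. The named genes were the 12 largest rises and 15 largest falls among called probes with a symbol, called genes of the lists, the genes that the study names for this tissue, 3 genes with the smallest p between breeds and 2 rises and 2 falls without a symbol. Other called genes were named after their values were seen. The genes of the 27 pathway and 12 cell marker lists, represented by their brightest probe, were chosen with earlier results of these data known. Some genes are not reported here.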

Additional observations from a re-analysis of the deposited data

Results flagged for a closer look

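Among 186 groups of F1 values checked, 5 had 1 array far from the others, where chance gives about 1 in 20. RAB11FIP2 read 9.972 on TN array 4 and 9.809 to 9.825 on the other TN arrays. Probe A_72_P364548 read 13.18 on TN array 3 and 12.6 to 12.66 on the others. The mean deviation of the glucocorticoid target genes was 0.749 on TN array 2, against -0.009 to 0.018 on the other TN arrays, and -0.8051 on HS array 5, against -0.0526 to 0.1375 on the other HS arrays. Genes that stood out on TN array 2 included PDK4 (16.30, others 14.32 to 15.36) and CEBPD (13.39, others 11.82 to 12.04), and on HS array 5 PDK4 (12.27, others 13.78 to 14.90). The mean deviation of the red blood cell genes was 0.4255 on TN array 1, against 0.072 to 0.110 on the other TN arrays.

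The F1 and Large White changes differed past the threshold for 1 probe without a symbol, A_72_P123631. It changed by -0.08 in F1 pigs and by -1.16 in Large White pigs, a difference of 1.076 (limma, adjusted p = 0.00561). Its F1 means were 6.64 in TN and 6.56 in HS pigs, and its Large White means 7.73 and 6.57.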

How the results depend on the processing

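The count of 188 probes became 5 with only the F1 arrays in the fit, normalised with or without the other breeds, 4 with the slide as a fixed block, 600 with array weights and 114 with no filter on dim probes. It was 0 with the red blood cell score as a covariate (lowest adjusted p 0.155) and, in the alternatives added after seeing the data, 0 with the keratinocyte score as a covariate (0.0594) and 0 without HS arrays 3 and 5. Leaving out 1 array gave 0 to 494 probes for the F1 change, and 0 to 1 for the F1 change minus the mean of the other breeds, with 1 probe without F1 TN array 4. The other settings gave 157 to 243 probes, and the cause of these shifts was not tested. All tested probes of the 188 kept their sign under all settings, which their selection largely fixes. Among the named genes the sign turned for SOD1, at 0.0061 without F1 TN array 2 (range over arrays left out -0.0875 to 0.0061). It also turned for SLC11A1, at -0.1072 with the mean of its probes. Medians of some lists turned as well, among them those of complex I and complexes III to V. Averaging probes by gene called 63 of 10324 genes, 7 higher and 56 lower. The labels give no replicate numbers that pair pigs, and the slide was the block that could be fitted. The 4 and 5 pigs of a group limit the precision.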

Other observations

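Several lists of cell type markers had more genes higher than lower in HS pigs, and limma called 0 of their genes. Over all genes on their brightest probe, 15.9% were at an unadjusted p under 0.05 and 6.58% were so and higher in HS pigs. All 12 fibroblast and progenitor genes were higher, with a median change of 0.26 and 2 at an unadjusted p under 0.05, COL1A1 (0.34, adjusted p = 0.277) and PI16 (0.65, adjusted p = 0.185). Of 7 smooth muscle and pericyte genes 6 were higher and 4 of them at that p, among them TAGLN, a contractile protein of smooth muscle, at 0.53 (adjusted p = 0.128) and CNN1 at 0.68 (adjusted p = 0.231). Of 10 nerve and Schwann cell genes 9 were higher and 5 of them at that p, among them the myelin gene MBP (0.85, adjusted p = 0.171). MBP read 10.82, 10.45, 10.76 and 11.87 in TN and 10.94, 11.94, 11.29, 12.28 and 12.67 in HS pigs, so that TN array 4 lay among the HS pigs.

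Among immune genes, the chemokine gene CCL4 read 10.75, 10.64, 9.39 and 10.63 in TN and 9.07, 9.37, 9.35, 8.63 and 9.18 in HS pigs (change -1.23, SE 0.30, adjusted p = 0.0664), and IL15 changed by -0.72 (adjusted p = 0.0719). For CCL4 the HS pigs were all lower, and TN array 3 stood close to them. Of the 24 genes of the cytokine and chemokine list 15 were lower and 9 higher, with a median of -0.09 (-0.18 without HS array 3, 0.0012 without TN array 4), and 4 were lower and 2 higher at an unadjusted p under 0.05. Of 11 macrophage markers 8 were lower, with a median of -0.19 in F1 pigs (-0.30 without HS array 3, -0.10 without HS array 2 and -0.08 without TN array 3), against 0.56 in Creole and 0.18 in Large White pigs, and the difference between breeds was not tested for the list. Of 16 clock genes 9 were lower and 7 higher, with 2 each way at an unadjusted p under 0.05. Among them CIART was at -0.80 (adjusted p = 0.0842) and NPAS2 at -0.62 (adjusted p = 0.135), while the repressor gene BHLHE41 was at 0.52 (adjusted p = 0.133).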
